A study of Mus musculus with 4 samples.

Results

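The phase II conjugation enzymes described here are the glutathione S-transferases, the UDP-glucuronosyltransferases and the sulfotransferases of the mouse kidney. They were taken as every gene symbol in the data that starts with Gsta, Gstk, Gstm, Gsto, Gstp, Gstt, Gstz, Mgst, Ugt1a, Ugt2b, Ugt3a or Sult. This gave 47 of 16706 genes, in 12 families: 4 GST alpha, 1 GST kappa, 6 GST mu, 2 GST omega, 3 GST pi, 4 GST theta, 1 GST zeta, 3 membrane-bound MGST, 9 UGT1A, 4 UGT2B, 2 UGT3A and 8 SULT genes. The rule used names only and no measured value.

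The study profiled total kidney cells by 3′ droplet single-cell RNA sequencing. The 4 groups were male C57Bl/6 mice of 9 weeks dosed with 15 mg/kg panobinostat, 10 mg/kg givinostat, 60 mg/kg ruxolitinib, or distilled water as vehicle. Panobinostat and givinostat block histone deacetylases, while ruxolitinib blocks JAK1 and JAK2 signalling. Every group, vehicle included, carried Pax2.rtTA;TetO.Cre;R26.Confetti, a multicolour lineage reporter whose inducible Cre is under control of Pax2, and every group received anti-GBM serum, which is directed at the glomerular basement membrane and models crescentic glomerulonephritis. Treatment began 1 day after the serum and the kidneys were taken on day 7. Each group had 2 animals but 1 library, and pooling of the animals is not stated. No group without serum was analysed here.

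With 1 library per group no difference was tested. Each ratio below compares 1 drug library with the single vehicle library, which all 3 drugs share, and its interval covers counting error only. After filtering, 4396 panobinostat, 3472 givinostat, 3979 ruxolitinib and 3930 vehicle cells were kept, and 19 cell barcodes occurred in more than 1 library (2 to 4 for each pair). The kept cells of a library held 36861583 to 45075309 UMIs (unique molecular identifiers, 1 per counted transcript). Depth per cell differed, with medians of 6568.5, 10020.5, 8370 and 7957.5 UMIs in the panobinostat, givinostat, ruxolitinib and vehicle libraries. In proximal tubule-like cells the medians were 7668, 12941, 10385 and 9744 UMIs. The lowest kept cell of a library had 2920 to 5272 UMIs. The part of depth in the ratios was not tested. The libraries also fall into pairs by 2 transcripts that are no members. In proximal tubule-like cells Tpm3-rs7 was at 1.86 and 1.62 CPM (UMIs scaled to 1e+06 per class and library) in the panobinostat and vehicle libraries but at 16.8 and 23.3 CPM in the givinostat and ruxolitinib libraries, and Gm10036 was at 15.4, 2.902, 3.95 and 15.1 CPM (panobinostat, givinostat, ruxolitinib, vehicle). The givinostat and ruxolitinib ratios cross this split. Its part in them was not tested.

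Phase II enzymes attach a polar group to drugs, steroids, bile pigments and reactive lipids so that transporters can move them out of the cell. Glutathione S-transferases (GSTs) join glutathione to electrophiles, UDP-glucuronosyltransferases (UGTs) transfer a sugar, usually glucuronic acid, and sulfotransferases (SULTs) transfer sulfate from the donor PAPS. In the kidney this work is done mostly by the proximal tubule, whose first part (S1) reabsorbs glucose and amino acids and whose last part is called S3.

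Among the named cell classes, proximal tubule-like cells were the main site of these transcripts. They formed 7 of 29 clusters, made without the member genes, and numbered 2525, 1197, 1760 and 1797 in the panobinostat, givinostat, ruxolitinib and vehicle libraries. In each of them 4 to 10 of 10 proximal tubule markers stood over 2-fold above the median cluster. UMIs of leukocyte genes were present in 1205, 896, 1053 and 1176 of these cells, and values without those cells are given where they end a call. The 47 members together took 0.480%, 0.530%, 0.485% and 0.459% of their UMIs. Of the 47, 23 reached 10 CPM in proximal tubule-like cells of at least 1 library, 12 of these reached 100 CPM, and 24 stayed under 10 CPM. Of those 24, 7 reached 10 CPM in another cell class and 17 did not in any class compared, and 11 were under 1 CPM in proximal tubule-like cells of every library. A UMI marks the 3′ end of a transcript once, so these levels carry no length term.

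**Figure D1:**
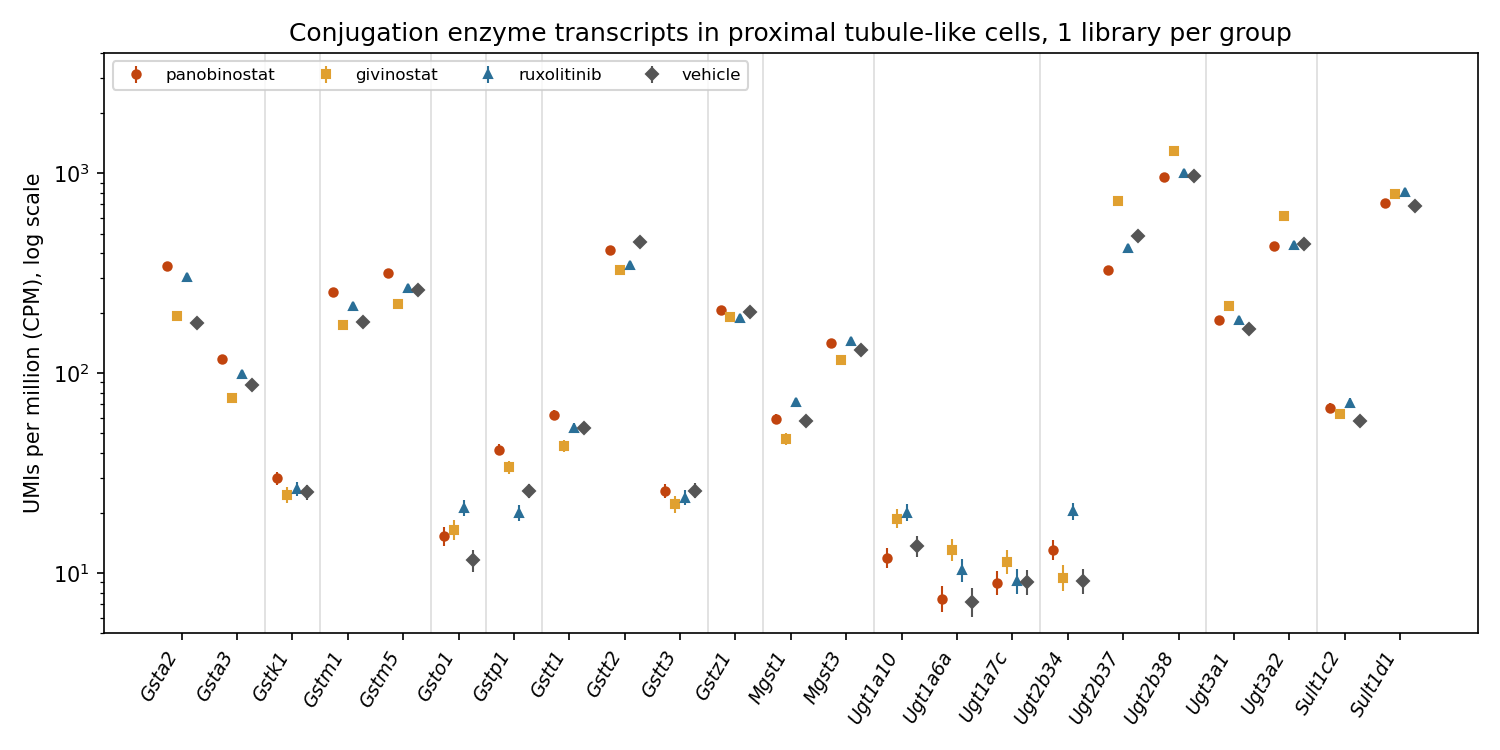
Levels of the 23 members that reached 10 CPM in proximal tubule-like cells, in CPM on a log axis, with 1 point per library (panobinostat, givinostat, ruxolitinib, vehicle) and bars for the exact Poisson 95% interval. Ugt2b38 lies highest, between 961 and 1289 CPM, and Ugt1a10, Ugt1a6a and Ugt1a7c lie lowest with Ugt2b34 and Gsto1, between 7.14 and 21.1 CPM.

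Among the GST alpha genes, whose enzymes handle electrophiles and lipid peroxides, Gsta2 (chromosome 9, 78331018 to 78355788 of GRCm38, minus strand) stood at 344, 194 and 304 CPM in the panobinostat, givinostat and ruxolitinib libraries, against 178 CPM in the vehicle library. The panobinostat and ruxolitinib values lie clearly above the givinostat and vehicle values, which are close together. The ratio to vehicle was 1.94 in the panobinostat library (95% interval 1.86 to 2.01), 1.09 in the givinostat library (1.04 to 1.15) and 1.71 in the ruxolitinib library (1.64 to 1.78). Gsta3 (chromosome 1, 21240589 to 21265661, plus strand), an alpha enzyme known in mice for conjugating aflatoxin epoxide, was at 118, 75.1 and 99.6 CPM in the panobinostat, givinostat and ruxolitinib libraries, against 87.0 CPM in the vehicle library. Gsta4, which acts on the lipid aldehyde 4-hydroxynonenal, and Gsta1 stayed under 10 CPM. In 64.8% of its 50-base windows the last 500 bases of Gsta2 transcripts are shared with other genes, among them Gsta1 and Gm10639, so its count is uncertain. Gm10639 was counted at 4.63, 2.63, 6.19 and 2.91 CPM in the panobinostat, givinostat, ruxolitinib and vehicle libraries.

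The stretch before the RefSeq start of Gsta2 is shown because Gsta genes are textbook targets of the aryl hydrocarbon receptor, which binds the xenobiotic response element. These are the 250 bases upstream of the RefSeq start, chr9:78347146-78347395 of GRCm38.p6, minus strand, 5′ to 3′, with the core of that element, GCGTG, in capitals.
Gsta2: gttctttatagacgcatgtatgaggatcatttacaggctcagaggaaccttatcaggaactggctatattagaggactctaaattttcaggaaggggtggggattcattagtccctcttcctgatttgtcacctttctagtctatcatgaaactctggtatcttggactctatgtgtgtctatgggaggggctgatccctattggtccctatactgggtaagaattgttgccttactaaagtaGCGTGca
This start lies inside the GENCODE bounds of Gsta2, so the annotations begin the gene at different places, and which start these cells use was not tested. The core starts 7 bases before the RefSeq start. On either strand it is found in 28.2% of 27025 RefSeq windows of this length, and in 9 of the 42 member windows. Motifs searched on both strands also included the antioxidant response element core TGACNNNGC (10.1% of windows) and the HNF4 site core CAAAGTCCA (0.381%), and neither run of letters is in this Gsta2 window.

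The mu class enzymes conjugate a wide range of electrophiles. Gstm1 (chromosome 3, 108012255 to 108017973, minus strand) was at 254, 174 and 217 CPM in the panobinostat, givinostat and ruxolitinib libraries, against 179.6 CPM in the vehicle library. Gstm5 (chromosome 3, 107895821 to 107898686, plus strand) was at 316, 223 and 267 CPM, against 260.1 CPM. For both, panobinostat was the highest and givinostat the lowest library. The ratio of Gstm1 in the panobinostat library was 1.41 (1.36 to 1.47). Gstm2, Gstm4, Gstm6 and Gstm7 did not reach 10 CPM here. Of the end windows of Gstm1, 23.0% are shared with Gstm3 and a pair of pseudogene or predicted transcripts.

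Gstp1, the pi class enzyme best known from its rise in liver nodules of rats, was lower in level, at 41.5, 33.8 and 20.1 CPM in the panobinostat, givinostat and ruxolitinib libraries, against 25.8 CPM in the vehicle library. Its ratio to vehicle was 1.61 (1.45 to 1.79), 1.31 (1.17 to 1.47) and 0.777 (0.683 to 0.883). It shares 37.7% of its end windows with Gstp2 or a Gstp pseudogene.

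The theta class enzymes act on small halides and sulfate esters. Gstt2 (chromosome 10, 75831114 to 75837424, minus strand) was at 414, 328 and 349 CPM in the panobinostat, givinostat and ruxolitinib libraries, against 456 CPM in the vehicle library, so all 3 drug libraries lay below vehicle. The ratio was 0.908 (0.883 to 0.934), 0.719 (0.697 to 0.743) and 0.765 (0.742 to 0.789). Its neighbours Gstt1, at 43.3 to 62.0 CPM over the 4 libraries, and Gstt3, at 22.1 to 25.9 CPM, were within 1.3-fold of vehicle in each drug library.

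Of the other glutathione-dependent members, Gstz1, which isomerises maleylacetoacetate in tyrosine breakdown, was at 208, 190.4 and 189 CPM in the panobinostat, givinostat and ruxolitinib libraries, against 202 CPM in the vehicle library. The membrane enzyme Mgst3 was at 142, 117 and 144 CPM, against 131 CPM. Mgst1, which reduces lipid hydroperoxides in membranes, was at 47.1 to 71.7 CPM and the mitochondrial and peroxisomal Gstk1 at 24.7 to 29.9 CPM over the 4 libraries. Gsto1, a thiol transferase that also reduces dehydroascorbate, was at 15.3, 16.4 and 21.1 CPM, against 11.6 CPM in the vehicle library. Its ratio in the ruxolitinib library was 1.82 (1.56 to 2.14).

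The UGT2B enzymes glucuronidate steroids and bile acids. Ugt2b38 (chromosome 5, 87409942 to 87424203, minus strand) had the highest level of all members, at 961, 1289 and 1008 CPM in the panobinostat, givinostat and ruxolitinib libraries, against 975 CPM in the vehicle library. Only the givinostat library lay apart, at 1.32 times vehicle (1.297 to 1.35). Ugt2b37 (chromosome 5, 87240493 to 87254804, minus strand) was at 329, 724 and 424 CPM, against 487 CPM. It was the lowest in panobinostat and the highest in givinostat, at 0.675 (0.655 to 0.695) and 1.49 (1.45 to 1.52) times vehicle, and stood at 0.871 (0.846 to 0.895) in ruxolitinib. Ugt2b34 was at 13.1, 9.46 and 20.4 CPM, against 9.10 CPM, and its ratio in the ruxolitinib library was 2.24 (1.89 to 2.67). Ugt2b5 stayed under 10 CPM.

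Ugt2b37 and Ugt2b38 are shown side by side because they are neighbours on 1 strand that had different ratios in the panobinostat library, while the stretches before their starts are nearly the same. These are the 250 bases upstream of each RefSeq start on GRCm38.p6, minus strand, 5′ to 3′, at chr5:87254789-87255038 for Ugt2b37 and chr5:87424204-87424453 for Ugt2b38. Capitals mark the bases that differ between them or stand against a gap.
Ugt2b37: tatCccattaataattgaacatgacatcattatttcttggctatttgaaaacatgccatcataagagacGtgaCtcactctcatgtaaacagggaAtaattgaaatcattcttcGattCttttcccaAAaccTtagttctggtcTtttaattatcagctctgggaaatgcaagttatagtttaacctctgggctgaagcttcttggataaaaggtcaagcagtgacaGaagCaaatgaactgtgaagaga
Ugt2b38: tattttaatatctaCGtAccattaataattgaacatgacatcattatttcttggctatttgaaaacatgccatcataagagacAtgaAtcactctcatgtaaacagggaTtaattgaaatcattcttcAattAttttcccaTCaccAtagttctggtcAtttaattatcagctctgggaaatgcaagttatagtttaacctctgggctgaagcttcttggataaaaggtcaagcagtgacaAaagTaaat
Over the 236 aligned bases 224 are identical (94.9%), 12 differ, and 2 more stand against a gap. Their transcripts end differently: Ugt2b38 shares no end window with another gene and Ugt2b37 shares 3.1%, with Ugt2b5, so most of their UMIs can be told apart.

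The UGT3A enzymes take other sugars than glucuronic acid, N-acetylglucosamine in human UGT3A1 and glucose or xylose in human UGT3A2. Ugt3a2 (chromosome 15, 9335550 to 9370955, plus strand) was at 433, 613 and 441 CPM in the panobinostat, givinostat and ruxolitinib libraries, against 441 CPM in the vehicle library. The givinostat library alone lay apart, at 1.39 times vehicle (1.35 to 1.43). Ugt3a1, beside it on chromosome 15 (9276888 to 9315032), was at 185, 218 and 184 CPM, against 167 CPM, again highest in givinostat at 1.31 times vehicle (1.25 to 1.37).

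The UGT1A enzymes, which glucuronidate bilirubin and phenols, come from 1 locus on chromosome 1 with alternative first exons and a common end. Between 57.8% and 100% of the end windows of the 9 members are shared within the locus, so a 3′ UMI can seldom be given to 1 of them and the split among them is uncertain. Their summed level was 44.4, 67.5 and 66.1 CPM in the panobinostat, givinostat and ruxolitinib libraries, against 45.9 CPM in the vehicle library. This is 0.968, 1.47 and 1.44 times vehicle, and it follows the pairs of libraries set out above. Of the 9, Ugt1a10 was at 11.9, 18.8 and 20.1 CPM, against 13.6 CPM, and Ugt1a6a at 7.44, 13.1 and 10.4 CPM, against 7.14 CPM.

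Among the sulfotransferases 2 carried nearly all the transcripts. Sult1d1 (chromosome 5, 87554645 to 87569027, minus strand), which in mice sulfates catecholamines and their breakdown products, was at 708, 792 and 808 CPM in the panobinostat, givinostat and ruxolitinib libraries, against 686 CPM in the vehicle library. No drug library differed from vehicle by 1.3-fold. Sult1c2 was at 67.2, 62.6 and 71.4 CPM, against 58.0 CPM. The other 6 stayed under 10 CPM.

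Against vehicle, a member was counted as past 1.3-fold on the scale of log2(CPM + 5), among genes with at least 10 CPM in either library. In the panobinostat library Gsta2, Gsta3, Gstm1 and Gstp1 were higher and Ugt2b37 was lower, 4 and 1 of the 21 members compared, where 1.24% of 7738 genes were higher and 2.57% lower. In the givinostat library Ugt1a6a, Ugt2b37, Ugt2b38 and Ugt3a2 were higher and Gstt2 was lower, 4 and 1 of 22, against 3.65% higher and 2.06% lower of 7868 genes. In the ruxolitinib library Gsta2, Gsto1, Ugt1a10 and Ugt2b34 were higher and Gstt2 was lower, 4 and 1 of 22, against 5.63% higher and 1.60% lower of 7942 genes. By this rule the members higher in panobinostat were all GSTs and those higher in givinostat were all UGTs. That split depends on the added 5 CPM. By the CPM ratio alone, Ugt2b34 in panobinostat and Gsto1 and Gstp1 in givinostat were also past 1.3-fold higher. The median log2 ratio of the members was 0.15, 0.11 and 0.14 in the panobinostat, givinostat and ruxolitinib libraries, where that of all genes was 0.01, 0.06 and 0.09. Scaling by TMM left 2 higher and 1 lower in givinostat, where Ugt2b38 and Ugt3a2 no longer passed, and gave 3 higher and 2 lower in ruxolitinib, as did DESeq2 size factors. Some of these calls stood close to the threshold: Gstt2 and Ugt1a10 in ruxolitinib passed it under 7 of 14 other settings, Ugt2b38 in givinostat under 8 and Gsta3 in panobinostat under 10. Without the cells that held a leukocyte UMI, Gstm1 in panobinostat, Ugt1a10 in ruxolitinib and Gstt2 in ruxolitinib did not pass. Gsta2, Gstp1 and Ugt2b37 in panobinostat, Gstt2 in givinostat, and Gsta2, Gsto1 and Ugt2b34 in ruxolitinib passed it under all 14.

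**Figure D2:**
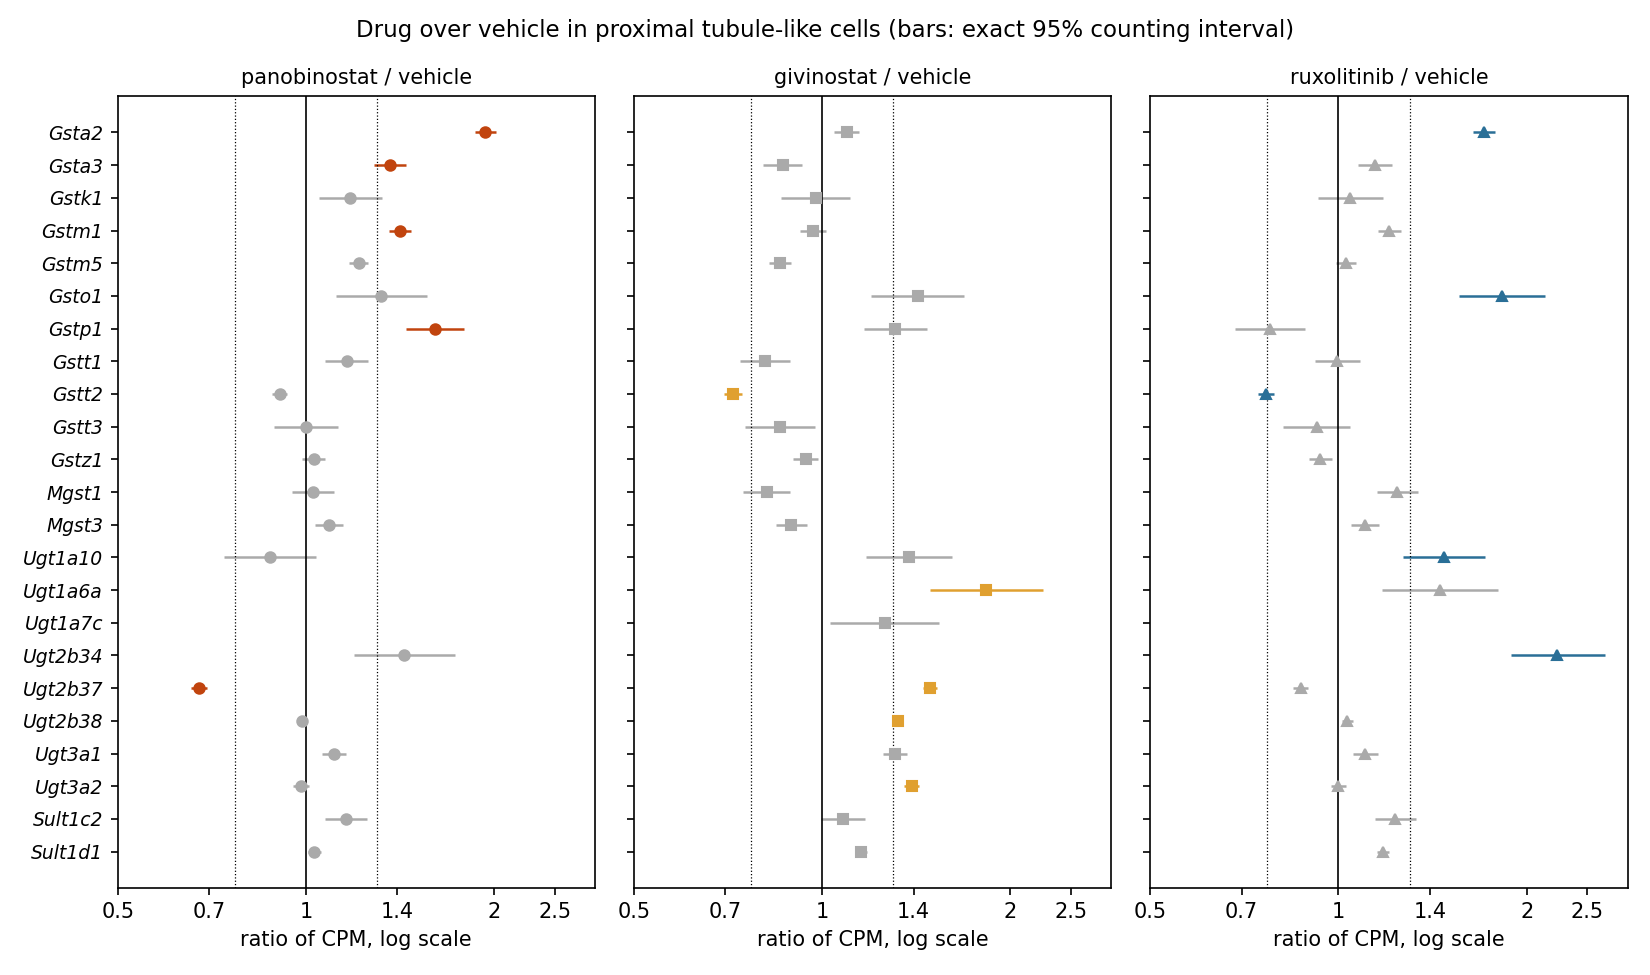
Ratio of CPM, drug over vehicle, in proximal tubule-like cells on a log axis, 1 panel per drug (panobinostat, givinostat, ruxolitinib), with bars for the exact conditional binomial 95% interval. Dotted lines mark 1.3-fold, and colour marks members past it after 5 CPM was added to both levels, so a few members of low level lie past a line in grey. Gsta2 lies at 1.94 in panobinostat and 1.71 in ruxolitinib, Ugt2b37 at 0.675 in panobinostat and 1.49 in givinostat.

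Along the tubule the members were placed differently. Of the 23 members, 13 were higher in S1-like than in S3-like cells in every library, 4 were higher in S3-like cells in every library, and 6 had a mixed order. Of all 8070 genes that reached 10 CPM in proximal tubule-like cells of any library, 55.5% were higher in S1-like and 12.6% in S3-like cells in every library, so the members' shares are near those of all genes. S1-like cells (clusters 0 and 3) numbered 865, 327, 735 and 578 in the panobinostat, givinostat, ruxolitinib and vehicle libraries, S3-like cells (cluster 18) only 63, 40, 74 and 59. The remaining 1597, 830, 951 and 1160 cells met neither set of markers. Clusters were made from the same cells, so the order is a description. The nuclear RNA Malat1 took 7.19% to 9.71% of UMIs in S1-like cells and 1.42% to 2.09% in S3-like cells. Median mitochondrial shares were 13.4% to 16.8% in S1-like cells and 23.0% to 27.1% in S3-like cells. The part of these differences in the order was not tested. In S1-like cells alone 4 of 24 members were past 1.3-fold higher and 2 lower in the panobinostat library (2.80% and 2.93% of 8187 genes), 6 of 24 higher and 1 lower in givinostat (11.9% and 3.35% of 8399 genes), and 7 of 25 higher and 1 lower in ruxolitinib (6.98% and 1.95% of 8306 genes). Gsta2 was among those higher in all 3, and Gsto1 among those higher in givinostat and ruxolitinib. Ugt2b38 joined Ugt2b37 among those lower in panobinostat.

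Gstm1 had the highest ratio of S3-like to S1-like level of the 23, at 1282, 919.7, 1229 and 1044 CPM in S3-like cells of the panobinostat, givinostat, ruxolitinib and vehicle libraries and at 169, 112, 139 and 106 CPM in S1-like cells. That is 7.60, 8.20, 8.83 and 9.82 times higher in S3-like cells. Ugt3a1 was 4.52, 4.11, 4.52 and 4.25 times higher there. Ugt3a2 and Gstp1 were also higher in S3-like cells in all 4 libraries, by 1.25 to 1.61 and 1.11 to 1.23 times. Gstm5, of the same class, had a mixed order and was at 269, 245, 218 and 304 CPM in S3-like cells and at 358, 249, 289 and 270.1 CPM in S1-like cells.

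In the other direction, 10 members were at least 2 times higher in S1-like cells in every library, also with any S3-like count under 3 raised to 3: Gsta2, Gsto1, Gstt1, Mgst1, Sult1c2, Ugt2b34, Ugt2b38, Ugt1a10, Ugt1a6a and Ugt1a7c. By the same rule 12.7% of the 8070 genes were higher in S1-like cells and, with the sets exchanged, 2.60% in S3-like cells, against 2 members there, Gstm1 and Ugt3a1. Ugt2b38 was at 90.7, 37.8, 36.9 and 42.8 CPM in S3-like cells of the panobinostat, givinostat, ruxolitinib and vehicle libraries and at 820.3, 1204, 1059 and 1074 CPM in S1-like cells. Gsta2 was at 50.2, 22.7, 122 and 24.2 CPM in S3-like cells and at 652, 407, 448 and 284 CPM in S1-like cells. Ugt2b34 had 1, 0, 0 and 0 UMIs in S3-like cells and stood at 40.7, 35.7, 52.2 and 32.3 CPM in S1-like cells. A count of 0 allows up to 4.53, 3.17 and 4.28 CPM in the givinostat, ruxolitinib and vehicle libraries. Sult1d1, by contrast, was nearly level, at 0.934, 1.02, 1.02 and 1.16 times S1-like in S3-like cells.

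**Figure D3:**
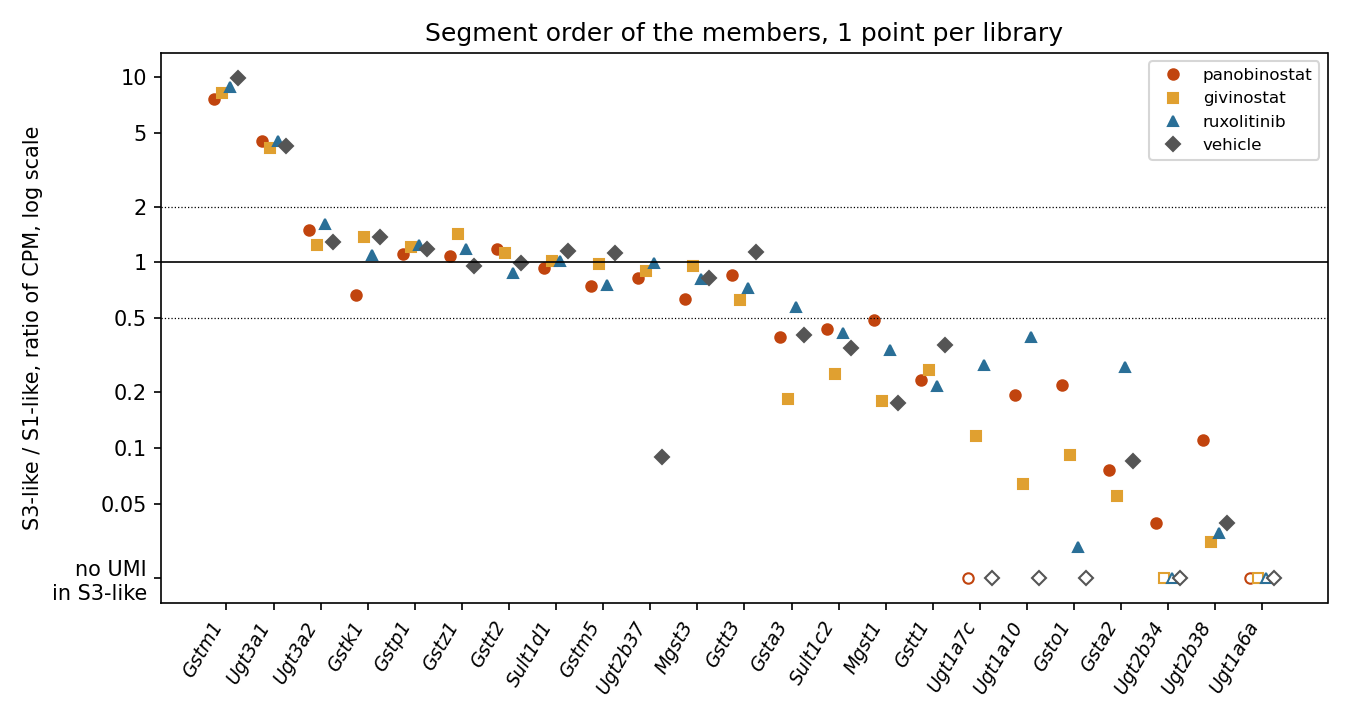
Ratio of CPM, S3-like over S1-like cells, for the 23 members on a log axis, 1 point per library (panobinostat, givinostat, ruxolitinib, vehicle). Open points at the bottom stand for no UMI in S3-like cells, and dotted lines mark 2-fold. Gstm1 and Ugt3a1 lie above the upper line in every library and Gsta2, Ugt2b34 and Ugt2b38 below the lower one.

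A second division ran through these cells. In clusters 2, 3 and 4 Malat1 took 0.0490% to 0.157% of UMIs, with median mitochondrial shares of 20.8% to 25.8%. In clusters 0, 1 and 8 it took 7.24% to 13.2%, with median mitochondrial shares of 10.0% to 18.4%. Over clusters 2, 3 and 4 (Malat1-poor) the median cell held 5705.5, 9939, 7296 and 6841.5 UMIs in the panobinostat, givinostat, ruxolitinib and vehicle libraries. Over clusters 0, 1 and 8 (Malat1-rich) it held 10460.5, 17222, 13429.5 and 13059 UMIs. The part of depth in this division was not tested. Malat1-poor cells were 52.4%, 43.4%, 39.9% and 42.8% of proximal tubule-like cells in the panobinostat, givinostat, ruxolitinib and vehicle libraries. The division was drawn after its values were seen. Of the 23 members, 15 were higher in the Malat1-poor clusters in every library and 4 were higher in the Malat1-rich clusters in every library: Ugt1a10, Ugt1a6a, Ugt1a7c and Ugt2b34. These 4 are also among the 10 that were at least 2 times higher in S1-like than in S3-like cells. Of the 8070 genes, 26.1% were higher in the Malat1-poor and 58.8% in the Malat1-rich clusters in every library. With Malat1 left out of the totals, since its share alone lowers the CPM of other genes in the Malat1-rich clusters, 12 members were higher in the Malat1-poor clusters in every library and 6 in the Malat1-rich ones, against 20.5% and 64.9% of genes. Ugt1a6a was nearly absent from the Malat1-poor cells, with 4, 2, 1 and 2 UMIs there against 168, 241, 225 and 148 UMIs in the Malat1-rich cells. Gstp1 leaned the other way, at 1.89, 1.94, 2.55 and 1.83 times its Malat1-rich level in the Malat1-poor cells.

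Because the mix of clusters differed between libraries, each member was also compared with vehicle within each proximal tubule-like cluster that had at least 50 cells in both libraries, whatever its level there. Gsta2 was above vehicle in 7 of 7 clusters in the panobinostat library (1.15 to 2.34 times) and in 7 of 7 in the ruxolitinib library (1.48 to 5.05 times). In the givinostat library it was above in 2 of 6 (0.852 to 1.68 times), the S1-like clusters 0 and 3. S1-like cells were 27.3% of proximal tubule-like cells in the givinostat library, against 32.2% in the vehicle library. In S1-like cluster 3, where it was highest, Gsta2 stood at 947, 497 and 642 CPM in the panobinostat, givinostat and ruxolitinib libraries, against 404 CPM in the vehicle library. With the clusters weighted as in the vehicle library its log2 ratio was 0.82 in panobinostat and 0.66 in ruxolitinib, beside 0.93 and 0.76 as pooled.

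Gsta3, Gstm1 and Gstp1 were above vehicle in 7 of 7 clusters in the panobinostat library, by 1.05 to 1.53, 1.23 to 1.70 and 1.19 to 2.21 times. With the vehicle cluster mix Gsta3 did not pass 1.3-fold. Gsto1 was above vehicle in 7 of 7 clusters in the ruxolitinib library, in 5 of 6 in givinostat and in 5 of 7 in panobinostat. Gstt2 was below vehicle in 6 of 6 clusters in the givinostat library (0.643 to 0.772 times). In the ruxolitinib library it was below in 6 of 7, and the Malat1-poor clusters alone gave a log2 ratio of -0.04, beside -0.38 as pooled.

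The UGTs were also followed by cluster. Ugt2b37 was above vehicle in 6 of 6 clusters in the givinostat library (1.06 to 1.68 times), below in 6 of 7 in panobinostat and above in 3 of 7 in ruxolitinib. In cluster 2, led by the androgen-dependent gene Kap and the transporter Slc7a13, Ugt2b37 reached 655, 1477 and 907 CPM in the panobinostat, givinostat and ruxolitinib libraries, against 926 CPM in the vehicle library, and Ugt2b37 is itself among the 10 genes with the highest fold there. Ugt2b38 and Ugt3a2 were above vehicle in 6 of 6 clusters in givinostat, by 1.10 to 1.56 and 1.203 to 1.59 times. Ugt3a1 was as well, by 1.14 to 1.58 times, though it did not pass 1.3-fold when pooled. Ugt2b34 in ruxolitinib was above vehicle in 6 of 7 clusters, with no UMI in either library in the other one. It reached 10 CPM in the S1-like clusters 0 and 3 only, at 1.62 and 1.43 times vehicle there, lower than its pooled 2.24, and S1-like cells were 41.8% of proximal tubule-like cells in that library, against 32.2% in the vehicle library. With the vehicle cluster mix its log2 ratio was 0.49, beside 0.85 as pooled.

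**Figure D4:**
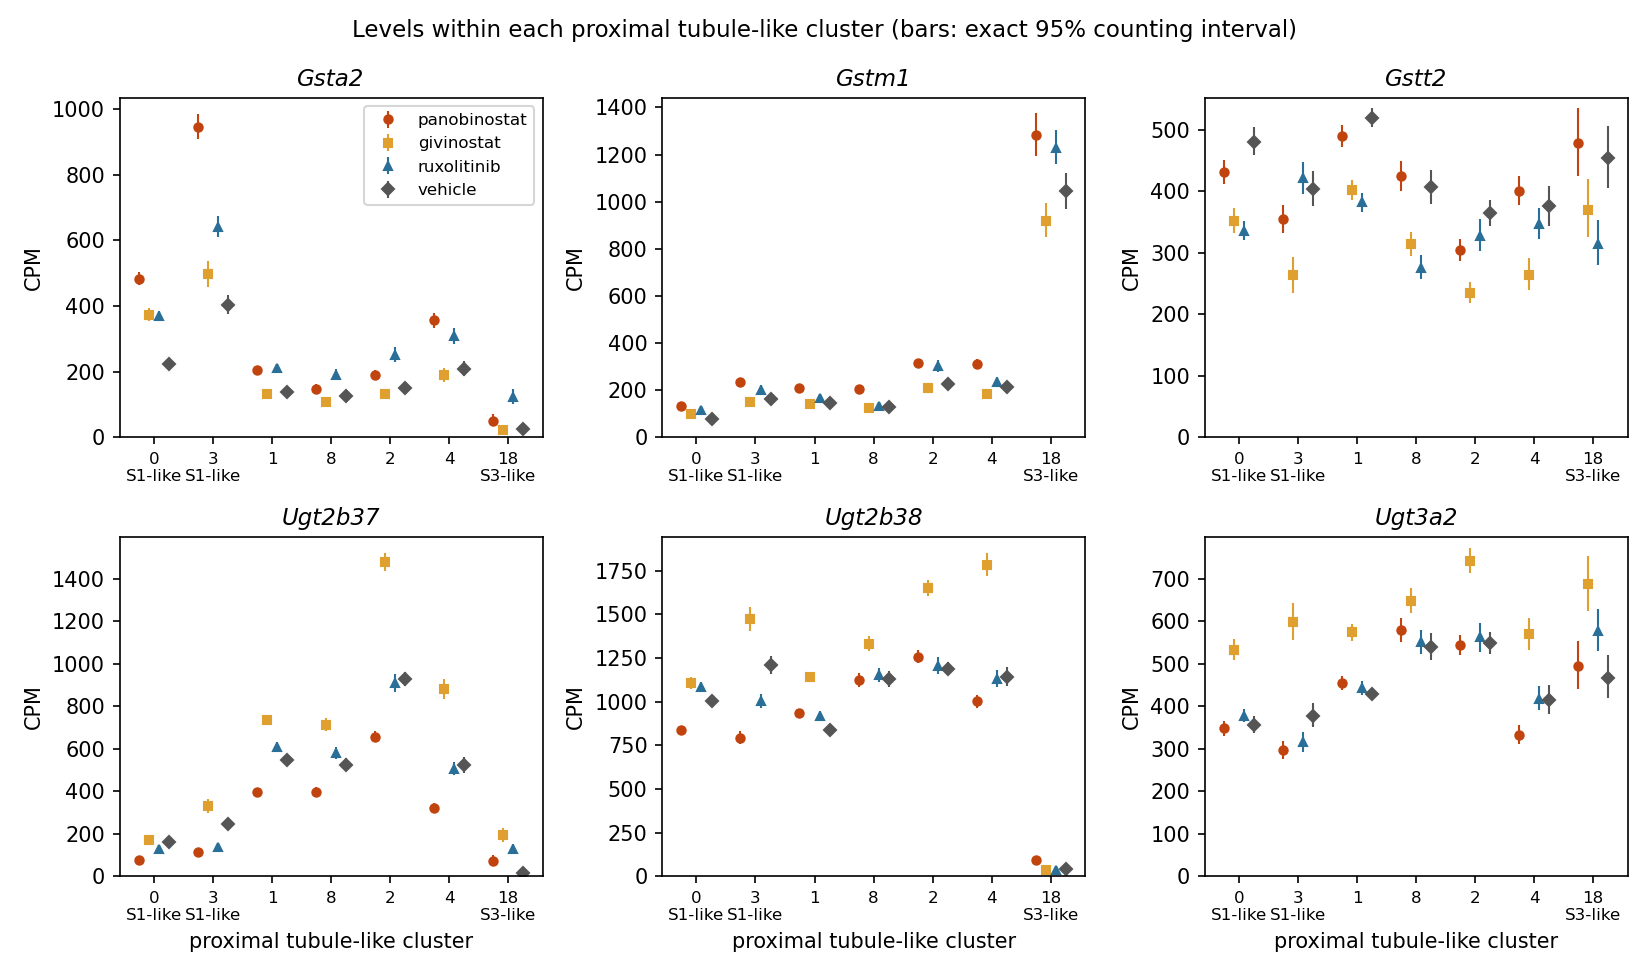
Levels in CPM within each of the 7 proximal tubule-like clusters for Gsta2, Gstm1, Gstt2, Ugt2b37, Ugt2b38 and Ugt3a2, 1 point per library (panobinostat, givinostat, ruxolitinib, vehicle), with exact Poisson 95% intervals. Gsta2 peaks in S1-like cluster 3, Gstm1 in S3-like cluster 18, and the givinostat points of Ugt2b37, Ugt2b38 and Ugt3a2 lie above vehicle in clusters 0, 1, 2, 3, 4 and 8. In cluster 18 the givinostat library has 40 cells.

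Outside the proximal tubule, tubule transcripts were also counted at a low share, as free RNA in droplets gives. The summed CPM of 10 proximal tubule transcripts in a class, as a share of their level in proximal tubule-like cells, was taken as the free RNA share: 6.91%, 3.88%, 3.75% and 4.31% in T-like cells of the panobinostat, givinostat, ruxolitinib and vehicle libraries, and 10.8%, 2.09%, 3.41% and 8.95% in loop of Henle-like cells. Of the 23 members, 15 were highest in proximal tubule-like cells in every library among the 10 classes compared. The 23 were kept for reaching 10 CPM in these same cells, so the count leans to this class. It leaves out the 7 members that reached 10 CPM only in another class, and the share over all genes was not counted. Gsta2 stood in T-like cells at 5.48%, 4.68%, 5.91% and 4.59% of its proximal tubule-like level, close to the free RNA share. That share is only an approximate measure, since the 10 transcripts are uneven along the tubule. By the same measure S1-like cells stood at 56.4% to 65.9% and S3-like cells at 161% to 189%, while Gsta2 leans to S1-like cells. Its T-like levels, 18.9, 9.10 and 17.97 CPM in the panobinostat, givinostat and ruxolitinib libraries against 8.16 CPM in the vehicle library, had the same order as in the tubule.

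Some members had their main level in the distal nephron. Mgst1 was at 234, 299 and 297 CPM in collecting duct principal or connecting tubule-like cells of the panobinostat, givinostat and ruxolitinib libraries, against 261 CPM in the vehicle library, and Mgst3, a membrane peroxidase related to leukotriene C4 synthase, at 272, 259 and 289 CPM, against 265 CPM. Gstt1 was at 287, 246 and 218 CPM there, against 266 CPM, and Gstm2 at 122, 117 and 107 CPM, against 113 CPM. These 4 lay above their proximal tubule-like level in every library and within 1.3-fold of vehicle in every drug library. Gsta4 reached 104, 139 and 81.9 CPM in these cells, against 106 CPM, while it stayed under 10 CPM in the proximal tubule. Gstt1, Gstm2 and Gsta4 were highest there of the 10 classes in every library, whereas Mgst1 was highest in monocyte-like cells in 3 of 4 libraries.

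The cluster behind this class was not pure. Slc12a3 and Calb1, genes of the distal convoluted tubule, are among the 10 genes with the highest fold in it, beside Aqp2, Hsd11b2, Fxyd4, Scnn1g and Scnn1b of the collecting duct. In a finer clustering its cells fell into a collecting duct principal or connecting tubule-like cluster of 68, 49, 73 and 136 cells in the panobinostat, givinostat, ruxolitinib and vehicle libraries and a distal convoluted tubule-like one of 91, 55, 68 and 83 cells, so the mix differed between libraries. Gstm2 was at 195, 171 and 152 CPM in the finer collecting duct cluster of the panobinostat, givinostat and ruxolitinib libraries, against 151.5 CPM in the vehicle library, and at 28.0, 25.4 and 27.7 CPM, against 35.4 CPM, in the distal convoluted tubule-like one. Mgst3 stood the other way, at 212, 218 and 249.9 CPM, against 242 CPM, in the finer collecting duct cluster and at 355, 329 and 359 CPM, against 315 CPM, in the distal convoluted tubule-like one.

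Loop of Henle-like cells held the same set and Sult1d1. Sult1d1 was at 270, 249 and 271 CPM in the panobinostat, givinostat and ruxolitinib libraries, against 226 CPM in the vehicle library. This was 31.4% to 38.1% of its proximal tubule-like level, above the free RNA share in every library. Mgst3 was at 293, 255 and 296 CPM in the panobinostat, givinostat and ruxolitinib libraries, against 382 CPM in the vehicle library, so every drug library lay below vehicle. With 5 CPM added only givinostat was past 1.3-fold lower, at a ratio of 0.668 (0.604 to 0.739). Gsto1 was at 88.0, 115 and 132 CPM, against 79.8 CPM, with ratios of 1.10 (0.871 to 1.39), 1.45 (1.21 to 1.74) and 1.65 (1.39 to 1.96). It thus lay above vehicle in the ruxolitinib library here as in the proximal tubule. Mgst1, at 214 to 251 CPM over the 4 libraries, and Gstt1, at 138 to 169 CPM, were within 1.3-fold. In intercalated-like cells Sult1d1 was at 117 to 227 CPM, Gstm1 at 130 to 185 CPM and Mgst3 at 131 to 164 CPM. Gstt1 was there at 121 to 152 CPM, Mgst1 at 90.4 to 113 CPM and Gsto1 at 76.8 to 114 CPM.

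The leukocyte classes held a few members each. Monocyte-like cells held Mgst1 at 353, 295 and 365 CPM in the panobinostat, givinostat and ruxolitinib libraries, against 339 CPM in the vehicle library, and Gsto1 at 101, 106 and 112 CPM, against 120.3 CPM. Both were above their proximal tubule-like level in every library. Gstm1 was in these cells at 121, 80.1 and 100 CPM, against 86.4 CPM, 46.1% to 48.1% of its proximal tubule-like level. Gsto1 was also found in dendritic-like cells at 54.6 to 66.6 CPM and in macrophage-like cells at 43.5 to 55.7 CPM. T-like cells held Gstp3 at 62.2, 56.7 and 48.5 CPM, against 61.6 CPM, and Mgst2, which can make leukotriene C4, at 43.8, 35.5 and 35.9 CPM, against 31.9 CPM. NK-like cells held Sult2b1, a cholesterol sulfotransferase, at 27.2, 24.3 and 32.5 CPM, against 25.5 CPM. In endothelial-like cells Sult1a1, which sulfates phenols, was at 33.5, 28.3 and 51.0 CPM, against 44.7 CPM, and the free RNA share there was the highest of the 10 classes, 16.9% to 27.9%. In monocyte-like cells of the ruxolitinib library 1 of 16 members compared was higher and 11 were lower, where 12.3% of genes were higher and 12.9% lower, and the free RNA share was 6.49% there against 10.2% in the vehicle library. In dendritic-like cells the counts ran the other way. In the panobinostat library 16 of 20 members were higher there and 0 lower (19.3% and 8.37% of genes), with a free RNA share of 17.97% against 5.05% in the vehicle library, and in the ruxolitinib library 13 of 18 were higher and 1 lower (15.8% and 6.63% of genes), with a share of 9.89% against 5.05%. The part of free RNA in these counts was not tested.

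**Figure D5:**
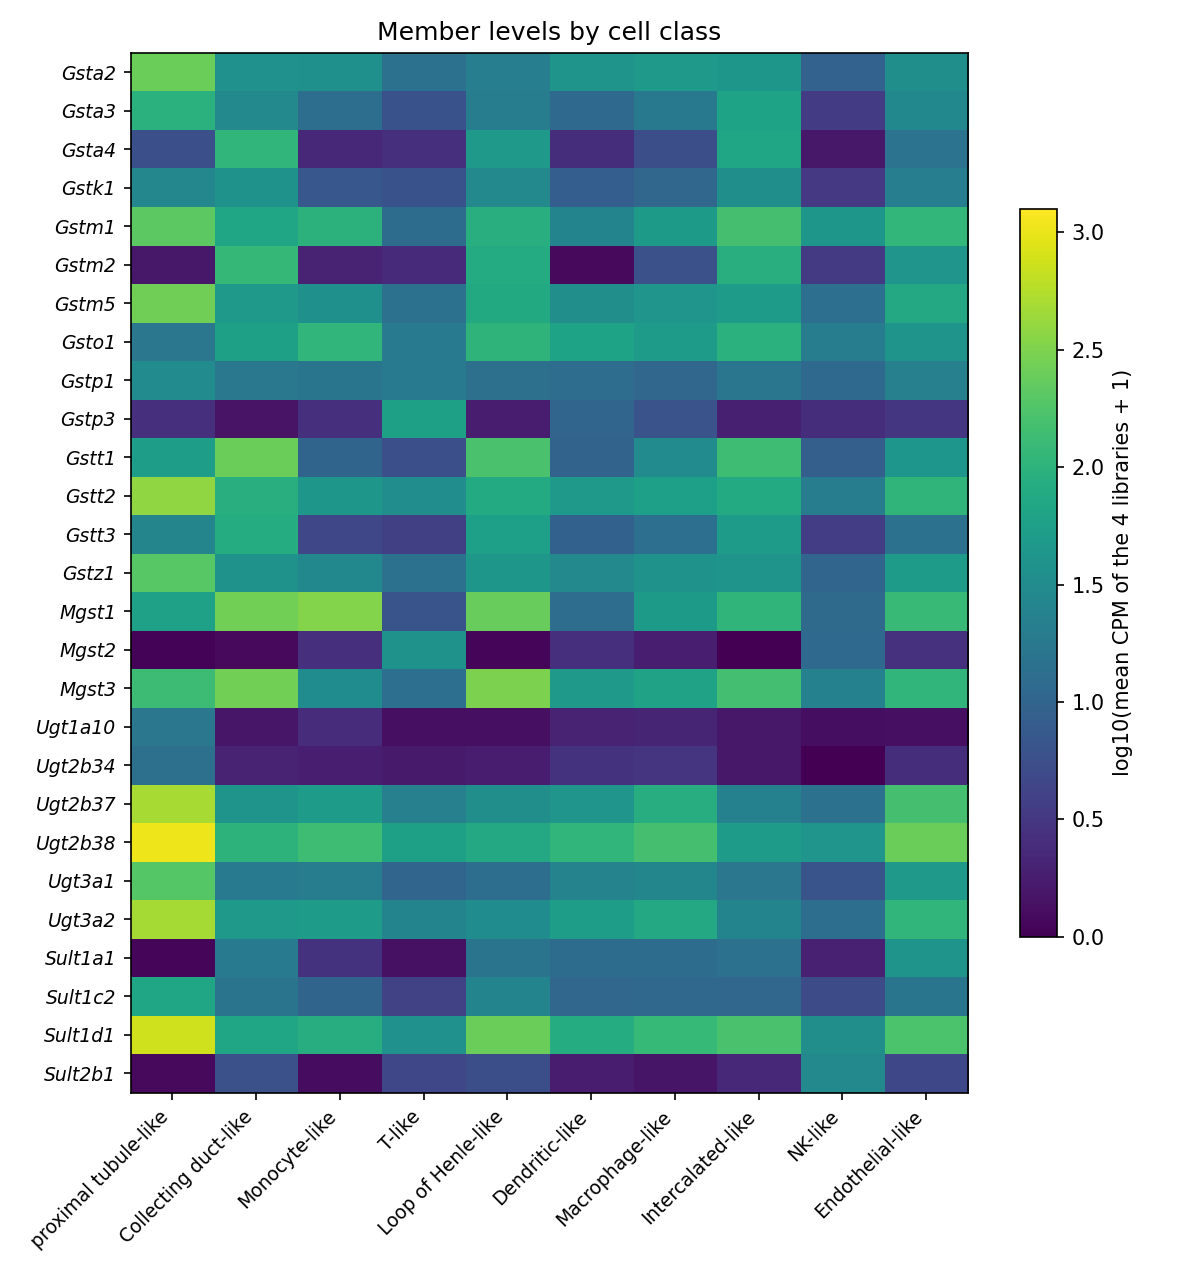
Heat map of 27 members over 10 cell classes, coloured by log10 of the mean CPM of the 4 libraries plus 1. Most members peak in the proximal tubule-like column. Mgst1, Mgst3, Gstt1, Gstm2 and Gsta4 are high in the collecting duct and loop of Henle-like columns, Mgst1 also in monocyte-like cells, Gstp3 and Mgst2 in T-like cells and Sult2b1 in NK-like cells.

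The genes that feed and surround these enzymes were counted by the same rule in proximal tubule-like cells, where 1.24% to 5.63% of all genes were higher and 1.60% to 2.57% lower. Counts of 0 or 1 in lists this short are near that background. Of 9 genes of glutathione supply and turnover compared, none was past 1.3-fold in the panobinostat or givinostat library and 1 was lower in ruxolitinib, Ggct, which breaks down gamma-glutamyl peptides, at 67.4 CPM against 89.5 CPM in the vehicle library. Of 5 genes of UDP-glucuronate supply, Slc35d1, which carries UDP-glucuronate into the endoplasmic reticulum, was the only one past it, at 72.5 CPM in the ruxolitinib library against 53.9 CPM. Of 8 genes of PAPS supply, Slc26a1, a sulfate transporter, was the only one, at 139.7 CPM in the panobinostat library against 106 CPM. None of 5 or 6 conjugate exporters passed.

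Among 6 other conjugating enzymes compared, the methyltransferase Inmt was higher in the panobinostat library, at 629 CPM against 451 CPM in the vehicle library, and no other passed in any drug library. Among the regulators, the transcription factor Cebpb was lower in panobinostat, at 69.9 CPM against 97.6 CPM in the vehicle library. Of 6 oxidoreductases that are targets of NRF2, Srxn1 was higher in panobinostat, at 31.0 CPM against 21.2 CPM, and the other 5 were within 1.3-fold in every drug library. With 1 library per group these counts are descriptions of the libraries.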

How the data were processed

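Total kidney cells of 4 groups were profiled as 3′ single-cell libraries, with sequencing on a NextSeq500, per the labels' protocols. The authors deposited 1 table of raw UMI counts per gene and cell for all libraries, with gene symbols only. Cell Ranger 3.0.1 and mm10 are named, per the submitters' processing notes, and other settings are not given in the sources used here. Each cell name carries its library. The vehicle library is the one named for no drug.

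Of 16003 deposited cells, 15777 were kept (a minimum of 200 genes and of 500 UMIs, and a mitochondrial share of up to 50%). No doublet caller was used. Cells were clustered with scanpy 1.11.5 and leidenalg 0.10.2 (2000 variable genes without the members, 30 principal components, 15 neighbours, resolution 1.0). A cluster was named from at least 3 markers with a lead of 0.5 on the log2 scale, and a class was compared where every library had at least 40 cells. Because names were rebuilt here, shares may differ from the study's. UMIs were summed per library and class and given as CPM with exact Poisson 95% intervals. Ratios have exact conditional binomial 95% intervals, which cover counting error only. Calls used log2(CPM + 5), at least 10 CPM in either library and 1.3-fold. The ratio and call steps were run on Poisson counts simulated from the vehicle proportions. These hold counting error only, with no difference between animals, libraries or cell mix, so they say nothing about such differences. A count of 0 was given an upper limit of 3 counts.

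Gene coordinates and end windows (50 bases, over the last 500 bases of transcripts) came from GENCODE vM21 on GRCm38, where all 47 members matched. Promoter sequences came from RefSeq on GRCm38.p6 and matched 42. Other scalings, by size factors of DESeq2 1.42.0 and by TMM in edgeR 4.0.16, were alternatives only, since 1 library per group allows no test. Values per library are given for members with at least 100 CPM in proximal tubule-like cells, for those past 1.3-fold there, and for up to 4 members above the free RNA share in each other class, with some others by choice after their values were seen. Members and lists were chosen with earlier results of these data known. The naming thresholds, the division by Malat1, the motifs and the promoters shown were chosen after seeing the data. The values of 1 regulator are not reported here.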

Additional observations from a re-analysis of the deposited data

Results flagged for a closer look

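In 4 flagged comparisons, all of Ugt2b37 or Ugt2b38, a member lay on opposite sides of vehicle in different proximal tubule-like cells of 1 drug library. Other members also lay on both sides in different clusters, such as Mgst1 in panobinostat, at 0.727 to 2.78 times vehicle. The differences were not tested, and each value comes from 1 library. Ugt2b37 in the panobinostat library had a log2 ratio of -1.05 in S1-like cells and of 1.82 in S3-like cells, where unsegmented cells gave -0.47. Ugt2b37 in the ruxolitinib library had -0.53 in S1-like cells and 2.60 in S3-like cells. Ugt2b38 in the panobinostat library had -0.39 in S1-like cells and 1.00 in S3-like cells. The S3-like values rest on few UMIs. Ugt2b37 had 45 UMIs in 63 panobinostat cells and 122 UMIs in 74 ruxolitinib cells, against 12 UMIs in 59 vehicle cells, and Ugt2b38 had 56 UMIs in panobinostat cells, against 30 UMIs in vehicle cells.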

How the results depend on the processing

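Of 910 member ratios recomputed under 14 alternatives, 747 moved by less than their counting interval and 162 moved further. The remaining 1 changed direction: Ugt1a10 in ruxolitinib, at -0.27 on the log2 scale in Malat1-poor clusters only. A change of direction was counted only for members past 1.3-fold as reported. Smaller ratios that crossed to the other side of vehicle were counted by the size of their move. Of 125 counts of members past the threshold or by place, 104 stayed within 1.5 times. The count higher in givinostat was 7 with the stricter cell filter (500 genes, 1000 UMIs, 20% mitochondrial) or a pseudocount of 1 CPM, 2 with TMM totals, 8 without cells holding a leukocyte UMI and 0 at 1.5-fold. The count lower in ruxolitinib was 0 with the stricter cell filter, at resolution 1.5, with a pseudocount of 20 CPM, at 1.5-fold, without stress-led clusters, with the vehicle cluster mix and without cells holding a leukocyte UMI, and 2 with TMM totals, DESeq2 size factors or Malat1-rich clusters only. The count higher in ruxolitinib was 1 with a filter of 50 CPM. At 1.5-fold panobinostat had 2 higher and 0 lower and givinostat 0 lower. Panobinostat had 2 lower without cells holding a leukocyte UMI, and givinostat 3 lower in Malat1-poor clusters only. TMM shifts every log2 ratio by -0.10 in givinostat and by -0.13 in ruxolitinib, and size factors by -0.11 in ruxolitinib. The cause of the other changes was not tested. The comparisons by Malat1, and the order with Malat1 left out of the totals, were chosen after seeing the data. No paired analysis was possible because each group has 1 library and all carry the same replicate number. S3-like values rest on 40 to 74 cells per library.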

Other observations

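Gstm1 reached its highest level outside the tubule classes. A cluster of 161 cells that stayed unnamed, because uroplakin genes of the urinary tract lining and collagen genes of stroma both led it, held Gstm1 at 4503, 4469 and 4285 CPM in the panobinostat, givinostat and ruxolitinib libraries, against 2225 CPM in the vehicle library, in 25, 50, 46 and 40 cells. All members together took 0.679%, 0.671% and 0.734% of its UMIs in the panobinostat, givinostat and ruxolitinib libraries, against 0.436% in the vehicle library. This was above the proximal tubule-like share in each drug library and below it in the vehicle library. Within the cluster, the 45 cells with uroplakin UMIs only held Gstm1 at 10152 CPM and Gsta4 at 2122 CPM, and the 36 cells with collagen or decorin UMIs only held them at 193.7 and 51.5 CPM. The uroplakin-only cells numbered 7, 16 and 17 in the panobinostat, givinostat and ruxolitinib libraries and 5 in the vehicle library, and Gstm1 within them was at 9732, 10916 and 8928 CPM, against 11730 CPM. These cells were divided after their values were seen.

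Sult5a1 in proximal tubule-like cells was carried by single cells. All 100 UMIs of the givinostat library lay in 3 cells, the highest with 51, and 20 of 24 UMIs of the panobinostat library lay in 1 cell.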
